A study of Mus musculus with 6 samples.

Results

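The genes described here are 32 transcripts enriched in long-term hematopoietic stem cells, measured in sorted mouse bone marrow progenitors of wild-type (WT) and Apcmin mice. They were taken by name from a list of such transcripts, drawn up with earlier results of these data known, and all 32 had a probe set annotated to that 1 symbol, out of 18193 genes measured. A gene with several probe sets was read by the brightest, averaged across the 6 arrays. Each value is a log2 normalized intensity, and each difference is Apcmin minus WT on that scale.

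Long-term stem cells are the few marrow cells that can rebuild all blood lineages for the life of a recipient. They divide rarely and are held in that state by a network of transcription factors, by surface receptors that tie them to their niche and by regulators of membrane traffic and cell shape. Many genes of such signatures are shared with endothelial cells, which arise close to stem cells in the embryo, or with lymphocytes.

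The cells were LKS+ cells, which lack mature lineage markers and carry c-Kit at a high level and Sca-1. This gate holds long-term stem cells together with a larger number of multipotent progenitors, so a signature gene is read here in a mixture. There were 3 arrays from WT mice and 3 from Apcmin mice, which carry the Min allele of Apc in the germline, a premature stop codon in a gene whose product helps to degrade beta-catenin. The sources used here give no strain, age or sex, and no treatment is named for either genotype. Cell yield is stated per mouse, and each array was counted as 1 sample. P-values set each difference against the spread between these samples. Whether each array is 1 mouse is not stated per sample, so that spread need not be the one between mice. In a bulk sample, fewer cells of a type and less RNA per cell cannot be told apart.

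Of 45037 probe sets, 0 passed between the genotypes (limma, Benjamini-Hochberg adjusted p under 0.05, 0% of those tested), 1714 had an unadjusted p under 0.05 and the smallest adjusted p was 0.954. Median log2 intensity per array lay between 4.12 and 4.18. For Apc itself the WT mean was 7.72 ± 0.09 (SD, n = 3) and the Apcmin mean 7.80 ± 0.09, and its other 3 probe sets differed by 0.40, 0.57 and -0.01. The Min allele changes a codon and need not alter these levels, so they say little about which genotype an array holds. Kit, a marker of the sort gate, was at 9.79 ± 0.18 and 9.87 ± 0.18.

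Most of the signature genes, 26 of the 32, had a mean of at least 6 in either genotype, as did 8842 of all 18193 genes. Of the members 0 lay below 4 on all arrays, where 6211 of all genes did. Neo1 exceeded 4 only on Apcmin replicate 1 (4.45). The 6 dim members, with a mean under 6 in both groups, were Clec1a, Clca3a1, Neo1, Nkx2-3, Ehd3 and Tcf15. An intensity depends on the probes as well as on the transcript, so a rank by brightness describes the signal of the probe sets and not the amounts of different transcripts.

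**Figure D1:**
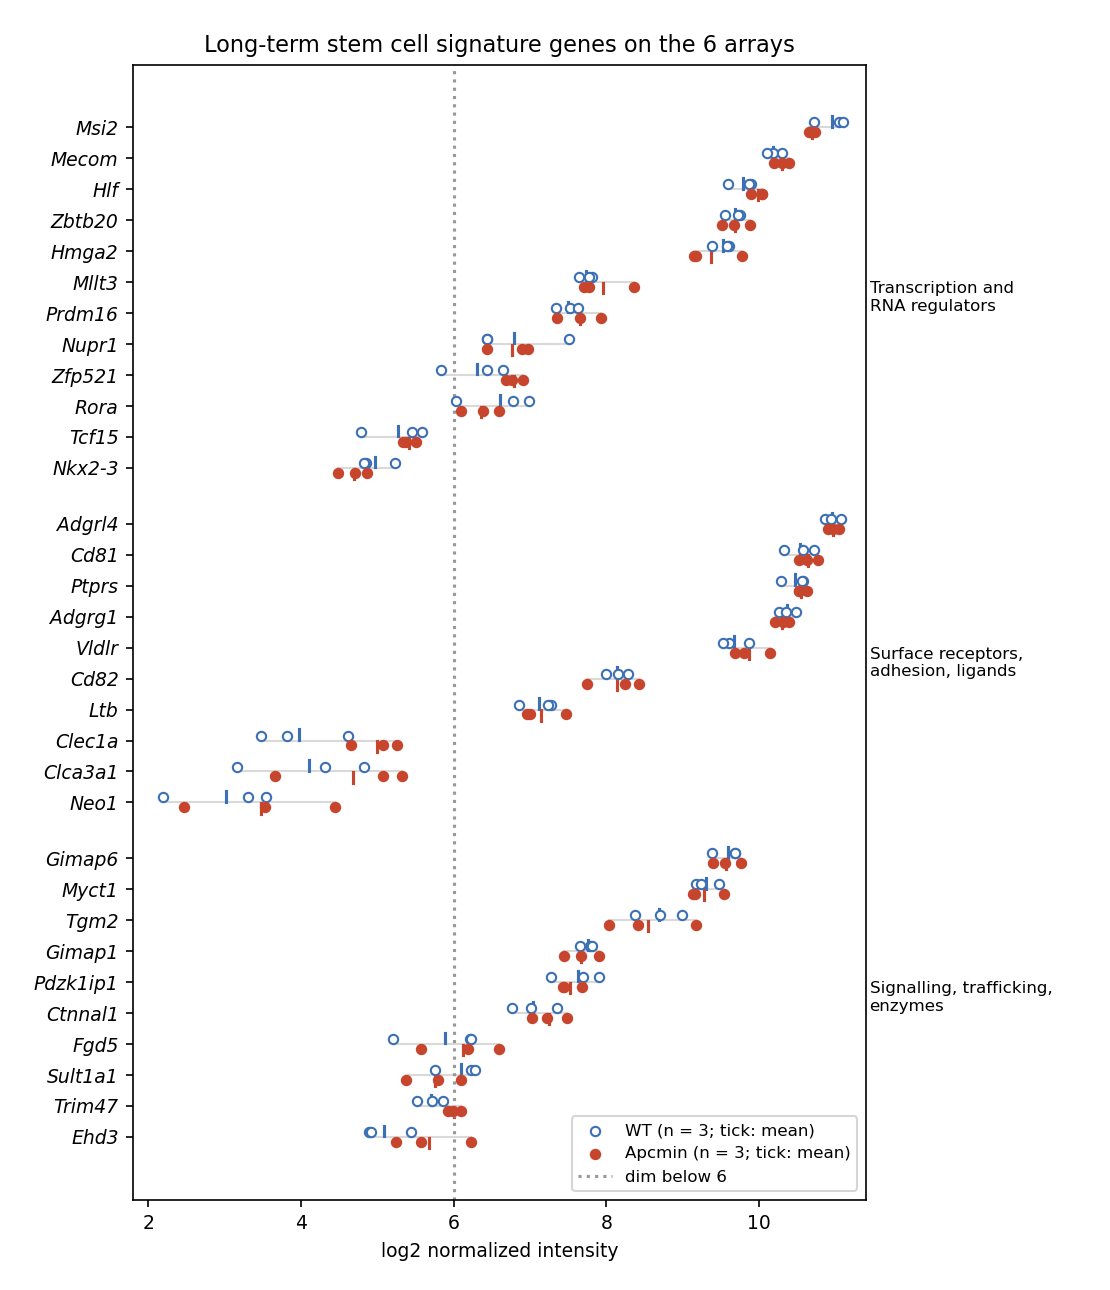
Log2 normalized intensity of each of the 32 genes on every array, with genes ordered by mean intensity within 3 role groups, open circles for the 3 WT arrays, filled circles for the 3 Apcmin arrays and a tick at each group's mean. The Apcmin circles lie to the right of all WT circles for Zfp521, Trim47 and Clec1a, and the groups overlap for the other 29 genes.

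No stem cell gene passed the threshold. Of the 32 members, 0 had an adjusted p under 0.05 (limma, smallest adjusted p 0.954), and 1, Clec1a, had an unadjusted p under 0.05. That is 3.12% of the members, against 3.11% of all genes (1.22% higher and 1.89% lower in Apcmin). The groups did not overlap for 3 members, which is 9.38% of them against 7.73% of all genes. All 3 were higher in Apcmin, where 2.97% of all genes separated upward and 4.76% downward. A difference of at least 0.5 in size was seen in 3 members (Clec1a, Ehd3 and Clca3a1), or 9.38%, against 6.69% of all genes. All 3 are dim.

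In Apcmin 20 had a higher mean and 12 a lower one, with a median difference of 0.05, while 43.0% of all genes had a higher mean and their median was -0.04. Among genes with a mean of at least 6 in either genotype, 15 of 26 members were higher (57.7%), with a median difference of 0.01. The same share over all 8842 such genes was 56.3%, with a median of 0.02. Of the dim members, 5 of 6 were higher in Apcmin (83.3%) with a median difference of 0.53. Of all 9351 dim genes 30.3% were higher, with a median of -0.13. These sets are not matched for brightness: 6211 of all genes lay below 4 on every array, and 0 members did. Near the brightness of the dim members other than Neo1, in bands of all genes around 4.43 and 5.27, the median difference was -0.07 and 0.01. The 95th percentile in these bands was 0.79 and 0.70. The 6 dim members also varied more, with a median SD within groups of 0.45, against 0.22 for the other members. The count of 20 fell to 16 of 32 after a further quantile normalization and also when a gene's probe sets were averaged instead of taking the brightest.

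**Figure D2:**
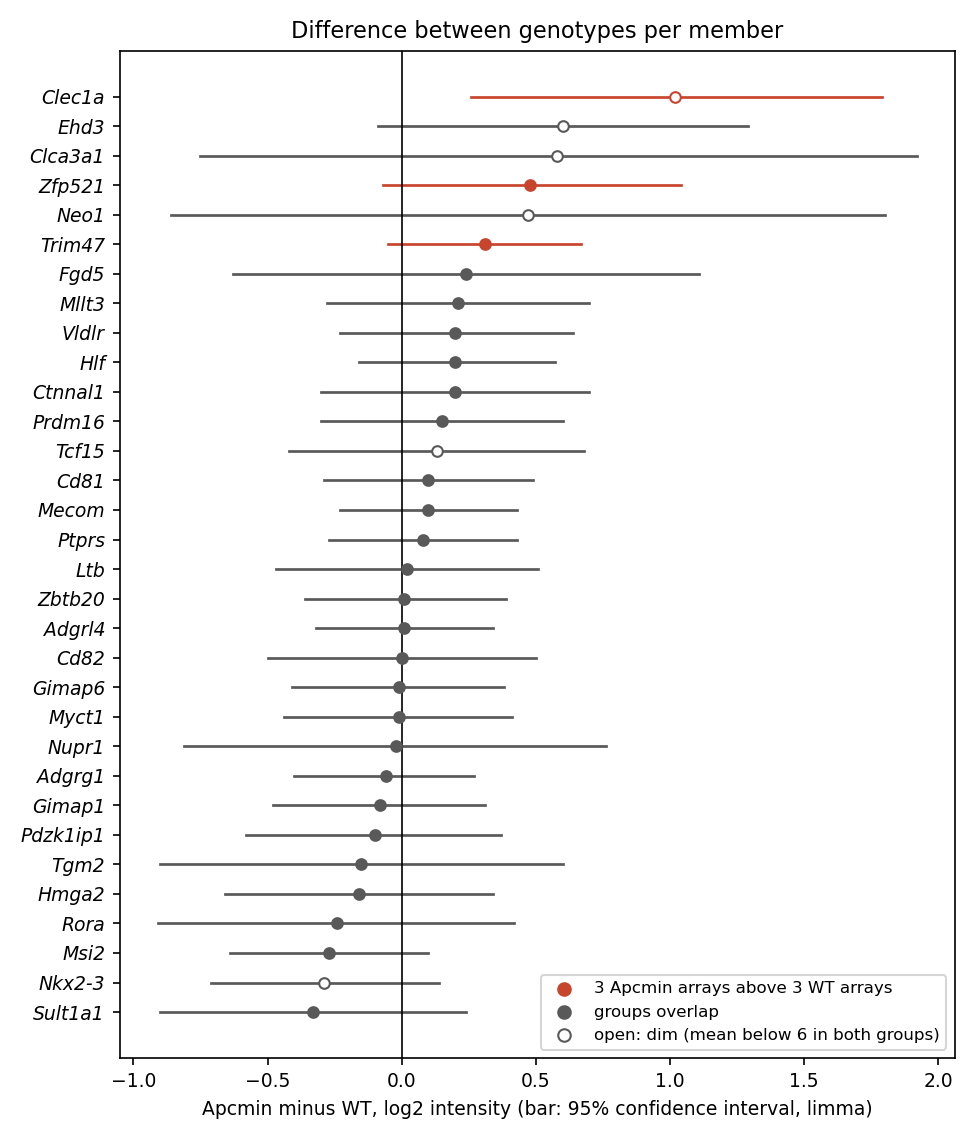
Difference between genotypes for each of the 32 genes (Apcmin minus WT, log2 intensity) with its 95% confidence interval from limma, sorted by size, open symbols for dim genes and red for genes whose groups did not overlap. Most intervals span 0, and the interval of Clec1a, from 0.26 to 1.79 before any adjustment for multiple tests, lies above it.

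The transcription and RNA regulators include the factors most closely tied to stem cell self-renewal. Apcmin had the higher mean for 7 of 12 and the lower for 5. Their median difference was 0.06, and 0 passed. Mecom, a zinc finger factor required to maintain long-term stem cells, was at 10.18, 10.30 and 10.10 on the WT arrays and at 10.39, 10.20 and 10.30 on the Apcmin arrays. These values overlapped, and the difference was 0.10 with a standard error of 0.14 (95% interval from -0.23 to 0.43). Hlf, a bZIP factor used to mark stem cells, was at 9.79 ± 0.17 and 9.99 ± 0.08, and WT replicate 1, at 9.59, was its lowest array. Prdm16, a zinc finger factor related to Mecom, was at 7.50 ± 0.15 and 7.65 ± 0.28. Mllt3, a chromatin reader that promotes transcript elongation, was at 7.74 ± 0.09 and 7.95 ± 0.36. Its difference of 0.21 rested on Apcmin replicate 3, at 8.36, and was 0.00 without that array.

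Zfp521, a zinc finger cofactor of immature blood cells, was one of the genes whose groups separated. It was at 6.44, 5.83 and 6.65 on the WT arrays and at 6.69, 6.77 and 6.91 on the Apcmin arrays. The lowest Apcmin value exceeded the highest WT value by little, and WT replicate 2 lay well below the rest. The difference was 0.48 with a standard error of 0.23, or 1.40-fold (limma, unadjusted p = 0.0783, adjusted p = 0.954), and was 0.24 without WT replicate 2. Its other probe set differed by 0.27 with overlapping groups.

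Msi2, an RNA-binding protein that controls translation in stem cells, was among the brightest members and leaned the other way. It was at 10.72, 11.05 and 11.10 in WT and at 10.66, 10.74 and 10.67 in Apcmin. The Apcmin arrays were close together, and WT replicate 1 lay within their range while the other WT arrays lay above it. The difference was -0.27 with a standard error of 0.16 (95% interval from -0.64 to 0.10, adjusted p = 0.954). Its 8 probe sets split evenly, 4 higher and 4 lower in Apcmin, and the mean over all of them differed by 0.07.

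The remaining regulators had small or uneven differences. Rora, an orphan nuclear receptor, was at 6.60 ± 0.50 and 6.36 ± 0.25, and 7 of its 9 probe sets had a lower mean in Apcmin. Hmga2, a chromatin architectural protein of fetal stem cells, was at 9.53 ± 0.12 and 9.37 ± 0.36. Zbtb20, a transcriptional repressor, was at 9.68 ± 0.11 and 9.69 ± 0.18. One of its dimmer probe sets differed by -1.44, with 4.43, 3.72 and 3.93 in WT and 2.46, 1.97 and 3.33 in Apcmin (unadjusted p = 0.00618, adjusted p = 0.954), while 6 of the 9 Zbtb20 probe sets had a higher mean. That probe set was singled out after its values were seen. Nupr1, a stress-induced chromatin protein, was at 6.79 ± 0.62 and 6.77 ± 0.29, and WT replicate 1, at 7.51, stood above the other arrays. Nkx2-3, a homeobox factor, was dim at 4.97 ± 0.22 and 4.69 ± 0.19, with all 3 of its probe sets lower in Apcmin. Tcf15, a bHLH factor, was dim at 5.27 ± 0.43 and 5.41 ± 0.09.

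Among surface receptors, adhesion proteins and ligands, the mean was higher in Apcmin for 9 of 10 genes. Their median difference was 0.09, and 0 passed. The count includes Cd82, Adgrl4 and Ltb, at 0.00, 0.01 and 0.02, which were at -0.02, 0.00 and -0.01 after quantile normalization. Clec1a, a C-type lectin-like receptor also found on endothelial cells, had the largest difference of the 32 genes. It was at 3.47, 3.82 and 4.62 in WT and at 5.26, 5.07 and 4.66 in Apcmin. Each Apcmin array was above each WT array, narrowly so for WT replicate 3 and Apcmin replicate 3. The difference was 1.02 with a standard error of 0.32, or 2.03-fold (limma, unadjusted p = 0.0158, adjusted p = 0.954). Its other probe set was dimmer and also separated the groups, at 2.06, 3.11 and 2.53 in WT and 3.95, 3.27 and 4.11 in Apcmin (difference 1.21). Of the 25 members with more than 1 probe set, only Clec1a had all of them separate (4%), against 0.266% of the 9010 such genes. Clec1a has 2 probe sets, many of those genes have more, and no share was made for genes with exactly 2. Its brightest probe set had already separated, so these shares add no independent support. Clec1a was dim on every array, and probe sets of 1 gene read the same RNA and are no replicates.

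Vldlr, a receptor of the low-density lipoprotein family, was higher in Apcmin by all 6 of its probe sets. The brightest was at 9.61, 9.53 and 9.87 in WT and at 9.68, 9.80 and 10.14 in Apcmin. WT replicate 3 overlapped the Apcmin arrays, and the difference was 0.20 with a standard error of 0.18 (adjusted p = 0.954). It was 0.07 without Apcmin replicate 3. The other 5 probe sets differed by 0.44, 0.63, 0.48, 0.76 and 0.50. The one at 0.63 separated the groups, with 7.87, 7.89 and 8.54 in WT against 8.67, 8.64 and 8.87 in Apcmin (unadjusted p = 0.0243, adjusted p = 0.954). Over all 99 probe sets of the members, 11 separated the groups, 7 upward and 4 downward, where 7.88% of all probe sets did (3.1% upward and 4.78% downward). The 4 downward were of Msi2 (-0.25), Nkx2-3 (-0.42), Myct1 (-0.27) and Zbtb20 (-1.44). Averaged over its probe sets, Vldlr differed by 0.50 (adjusted p = 0.93). Of the 244 genes with exactly 6 probe sets, 35 had all of them on 1 side (14.3%). Vldlr was singled out after these values were seen, and its brightest probe set carries the suffix that marks probes shared with other sequences.

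**Figure D3:**
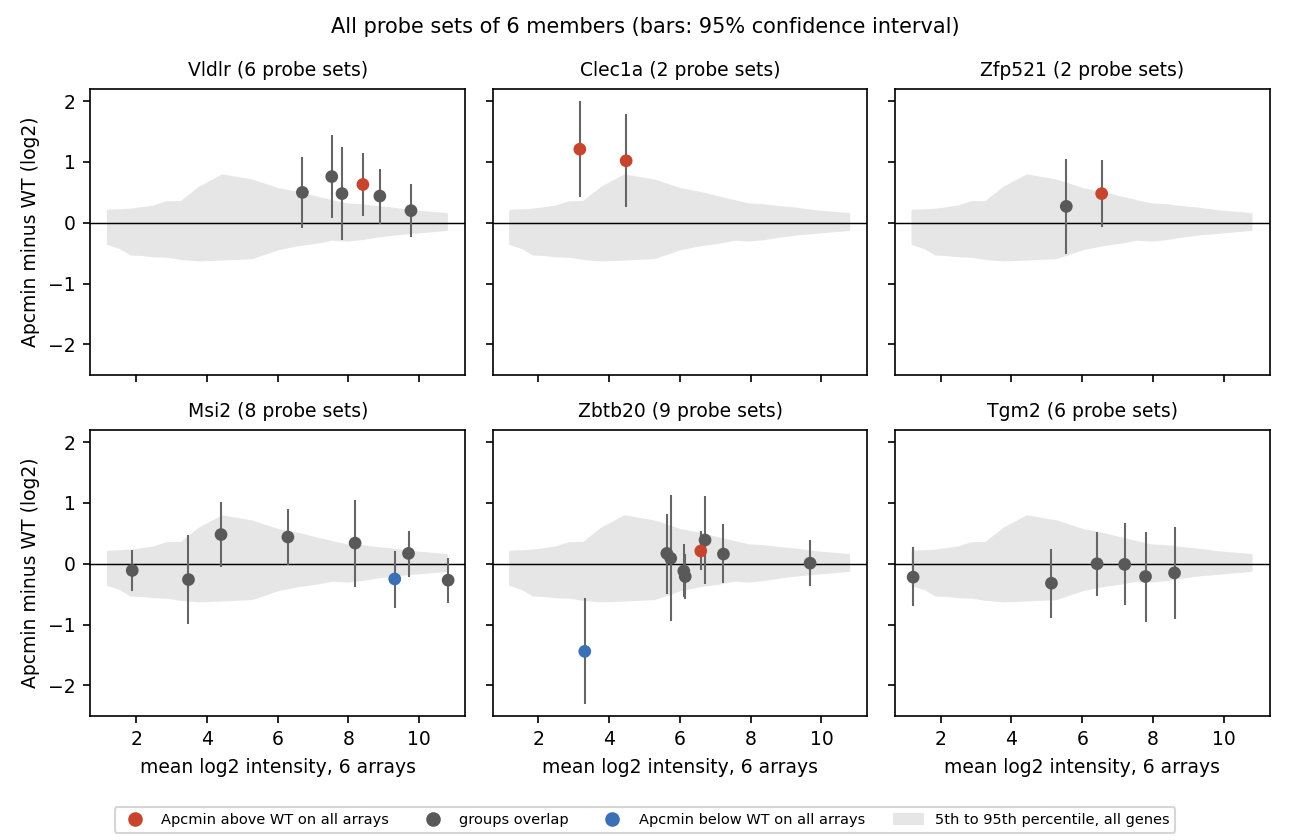
Difference between genotypes (Apcmin minus WT, log2) against mean log2 intensity for every probe set of 6 members chosen after their values were seen, with 95% confidence intervals and, in grey, the range between the lower and upper tails of all genes at that intensity. All probe sets of Vldlr, Clec1a and Zfp521 lie above 0, while those of Msi2 and Zbtb20 fall on both sides and those of Tgm2 lie at or below 0.

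The adhesion receptors and tetraspanins were bright and even across arrays. Adgrl4, an adhesion G protein-coupled receptor of vessels and stem cells, was the brightest member, at 10.87, 10.94 and 11.08 in WT and 10.97, 11.05 and 10.91 in Apcmin. The arrays overlapped fully, and the difference was 0.01 (95% interval from -0.32 to 0.34). Adgrg1, a related receptor, was at 10.37 ± 0.11 and 10.30 ± 0.09. Cd81, a tetraspanin of the stem cell membrane, was at 10.33, 10.58 and 10.72 in WT and 10.77, 10.53 and 10.63 in Apcmin. Its Apcmin values fell within the WT range except for replicate 1, and WT replicate 1 was the lowest. The difference was 0.10 (95% interval from -0.29 to 0.49). Cd82, a further tetraspanin, was at 8.14 ± 0.15 and 8.14 ± 0.35. Ptprs, a receptor tyrosine phosphatase that binds proteoglycans, was at 10.29, 10.58 and 10.56 in WT and 10.63, 10.52 and 10.52 in Apcmin. Only WT replicate 1 stood apart for Ptprs, below the others, and the difference was 0.08 (95% interval from -0.27 to 0.43).

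Ltb, a ligand of the tumor necrosis factor family that is also made by lymphocytes, was at 7.12 ± 0.23 and 7.14 ± 0.28. Neo1, a receptor for netrins and repulsive guidance molecules that marks dormant stem cells, was the dimmest member, at 2.19, 3.54 and 3.30 in WT and 4.45, 2.46 and 3.53 in Apcmin. The groups overlapped widely and the difference of 0.47 had a standard error of 0.56. Without Apcmin replicate 1 it was -0.02. Of the 5 Neo1 probe sets, 3 were higher and 2 lower in Apcmin. A probe set almost as bright (mean 3.23 against 3.24) separated the groups, by 0.67 (limma, unadjusted p = 0.0606, adjusted p = 0.954). It was singled out after its values were seen. Clca3a1, of a family named for calcium-activated chloride channels, was at 4.83, 4.31 and 3.16 in WT and 5.07, 3.66 and 5.32 in Apcmin. Its range over the arrays, 2.16, exceeded the difference of 0.58, which was 0.11 without WT replicate 3. A further probe set that also names its close relative Clca3a2 was left out, and these probes may read both.

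Among signalling, trafficking and enzyme genes, Apcmin had the higher mean for 4 of 10. Their median difference was -0.01, and 0 passed. Trim47, of the family of RING ubiquitin ligases, was at 5.52, 5.72 and 5.86 in WT and 5.99, 6.10 and 5.93 in Apcmin. The groups did not overlap, both were tight, and the difference was 0.31 with a standard error of 0.15, or 1.24-fold (unadjusted p = 0.0802, adjusted p = 0.954). It has 1 probe set. Ehd3, a protein of endosomal recycling, was at 4.89, 5.44 and 4.91 in WT and 5.57, 5.24 and 6.23 in Apcmin. Apcmin replicate 3 was far above the rest, and the difference of 0.60 (standard error 0.29, adjusted p = 0.954) was 0.33 without it. Sult1a1, a sulfotransferase, had the most negative difference when all 6 arrays were used, at 5.75, 6.23 and 6.28 in WT and 5.80, 5.38 and 6.09 in Apcmin. WT replicate 1 overlapped the Apcmin arrays, and the difference was -0.33 with a standard error of 0.24. It was -0.14 without Apcmin replicate 2 and -0.50 without WT replicate 1.

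Fgd5, whose locus is used to mark stem cells, varied between arrays more than between genotypes. It was at 5.21, 6.21 and 6.22 in WT and 6.59, 6.19 and 5.57 in Apcmin. The lowest array of each genotype stood well below the others, and the difference of 0.24 (standard error 0.37) was -0.10 without WT replicate 1. Ctnnal1, an alpha-catenin-like protein that likewise marks stem cells, was at 7.04 ± 0.30 and 7.25 ± 0.23, and its other probe set differed by -0.23. Tgm2, a protein crosslinking enzyme, was at 8.69 ± 0.31 and 8.54 ± 0.58. All 6 Tgm2 probe sets had a lower mean in Apcmin, by between 0.00 and 0.32, and their groups overlapped. The GTPases Gimap1 and Gimap6, also found in lymphocytes, differed by -0.08 and -0.01. Pdzk1ip1, a small membrane protein, differed by -0.10, and Myct1, a Myc target of endothelial and stem cells, by -0.01. Of the 4 Myct1 probe sets, 2 were higher and 2 lower in Apcmin, and 1 of the lower separated the groups, by -0.27.

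The arrays differed in the level of the signature within the WT group. WT replicate 1 also stood apart beyond the signature. Over probe sets with a mean of at least 6, its mean correlation with the other arrays was 0.957, against 0.967 to 0.971 for the rest. The part of this in the signature's values was not tested. WT replicate 1 was the lowest of the 6 arrays for 13 of the 32 genes (40.6%), where it was the lowest for 19.4% of all genes. The 13 were Hlf, Fgd5, Prdm16, Rora, Trim47, Clec1a, Gimap6, Ltb, Neo1, Cd81, Ehd3, Adgrl4 and Ptprs. In 24 of 32 genes it lay below the mean of the other WT arrays, with a median of -0.19, against 44.0% of all genes and a median of 0.05. All genes include many more dim ones than the members do. Among genes with a mean of at least 6 in either genotype, the median deviation from the 6-array mean on this array was -0.13 for members. It was -0.03 for all such genes. Nupr1, Clca3a1, Tgm2 and Pdzk1ip1 stood out in the other direction, with WT replicate 1 above the mean of the other WT arrays by 1.08, 1.10, 0.45 and 0.41. This array was singled out after the values were seen, and no test was made.

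**Figure D4:**
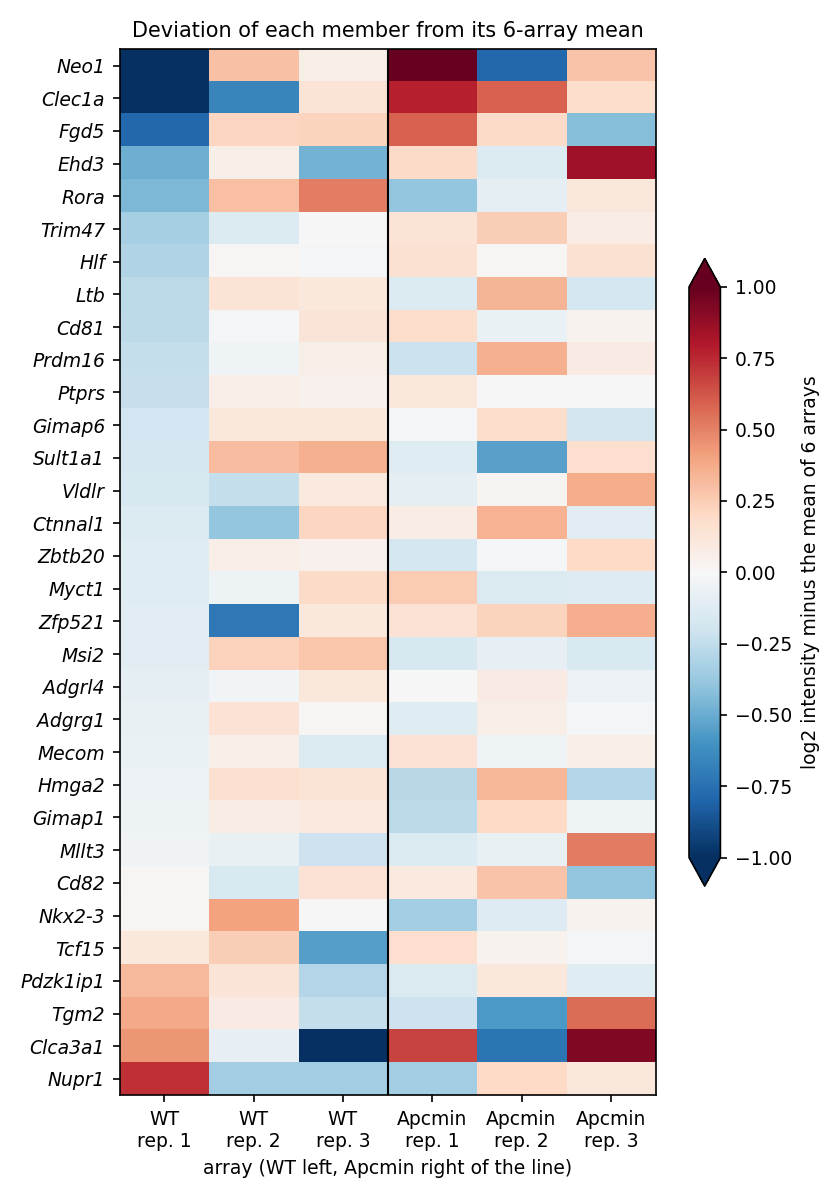
Log2 intensity of each of the 32 genes on every array minus that gene's mean over the 6 arrays, with genes sorted by their deviation on WT replicate 1 and the colour scale limited to 1 in either direction. The WT replicate 1 column is blue for most genes, and the Apcmin columns are not uniformly red.

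The members' median deviation from their own means was -0.13, 0.06 and 0.07 on WT replicates 1, 2 and 3 and -0.01, 0.03 and 0.04 on Apcmin replicates 1, 2 and 3. The Apcmin arrays lay within the WT range. Without WT replicate 1, the count of members higher in Apcmin was 17 of 32 (44.8% of all genes) and their median difference 0.00. With 1 array left out, groups separate more easily, and between 4 and 9 of 32 members did so. The share of all genes was 32.8% without WT replicate 3 and between 13.8% and 17.2% without any other array. Over all genes the median deviation was 0.05, 0.05 and -0.03 on WT replicates 1, 2 and 3. It was -0.03, -0.03 and 0.00 on Apcmin replicates 1, 2 and 3. Why the share rose most without WT replicate 3 was not tested.

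Other genes of stem cells showed the same low array. Of 40 listed, 38 were measured. Apcmin had the higher mean for 25 and the lower for 13, the median difference was 0.07, and 0 passed. Of the 32 with a mean of at least 6 in either genotype, 68.8% were higher, against 56.3% of all such genes. WT replicate 1 lay below the mean of the other WT arrays for 30 of the 38, and their median deviation there was -0.15. Ramp2, part of the adrenomedullin receptor, had the smallest p, at 3.91, 4.30 and 4.38 in WT and 5.30, 5.52 and 5.28 in Apcmin. It was dim, each Apcmin array was above each WT array, and the difference was 1.17 (unadjusted p = 0.000355, adjusted p = 0.954). Tek, the angiopoietin receptor, differed by -0.38. Procr and Slamf1, surface markers of long-term stem cells, differed by -0.09 and -0.22, and Cd34 was at 10.94 ± 0.05 and 10.94 ± 0.11.

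Genes of other cells varied across the same arrays, and those of mature granulocytes and macrophages were low on WT replicate 1 as well. It lay below the mean of the other WT arrays for 11 of these 15 (median -0.53), and their median deviation there was -0.25. It also lay below that mean for 11 of 15 lymphoid-primed progenitor genes (median -0.22). Their median deviation was -0.03 on WT replicate 1, as on WT replicate 2. WT replicate 1 was the lowest array for 3 of them (20%), against 19.4% of all genes. Genes of committed myeloid progenitors, in contrast, were highest on WT replicate 1 for 10 of 14, with a median deviation of 0.14 there and between -0.08 and 0.07 on the other arrays. Over the genotypes 12 of the 14 had a lower mean in Apcmin (median difference -0.17, 0 passed), and their summed intensity ranged from 22604 to 24756 in WT and from 21168 to 23186 in Apcmin. All 14 had a mean of at least 6 in either genotype, and 56.3% of all such genes were higher. Erythroid genes had a median deviation of 0.37 on WT replicate 1 and 0.50 on Apcmin replicate 3, but -0.66 on WT replicate 3 and -0.52 on Apcmin replicate 2. Lymphoid-primed progenitor genes were at their lowest on Apcmin replicate 3 (-0.32) and highest on WT replicate 3 (0.23), and Flt3 and Cd48 differed between genotypes by 0.05 and -0.17. Proliferation genes had 12 of 17 higher in Apcmin with a median difference of 0.08, and Mki67 differed by 0.05. Of the 16 with a mean of at least 6 in either genotype, 75% were higher, against 56.3% of all such genes. The part of these other programs in the signature's values was not tested.

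**Figure D5:**
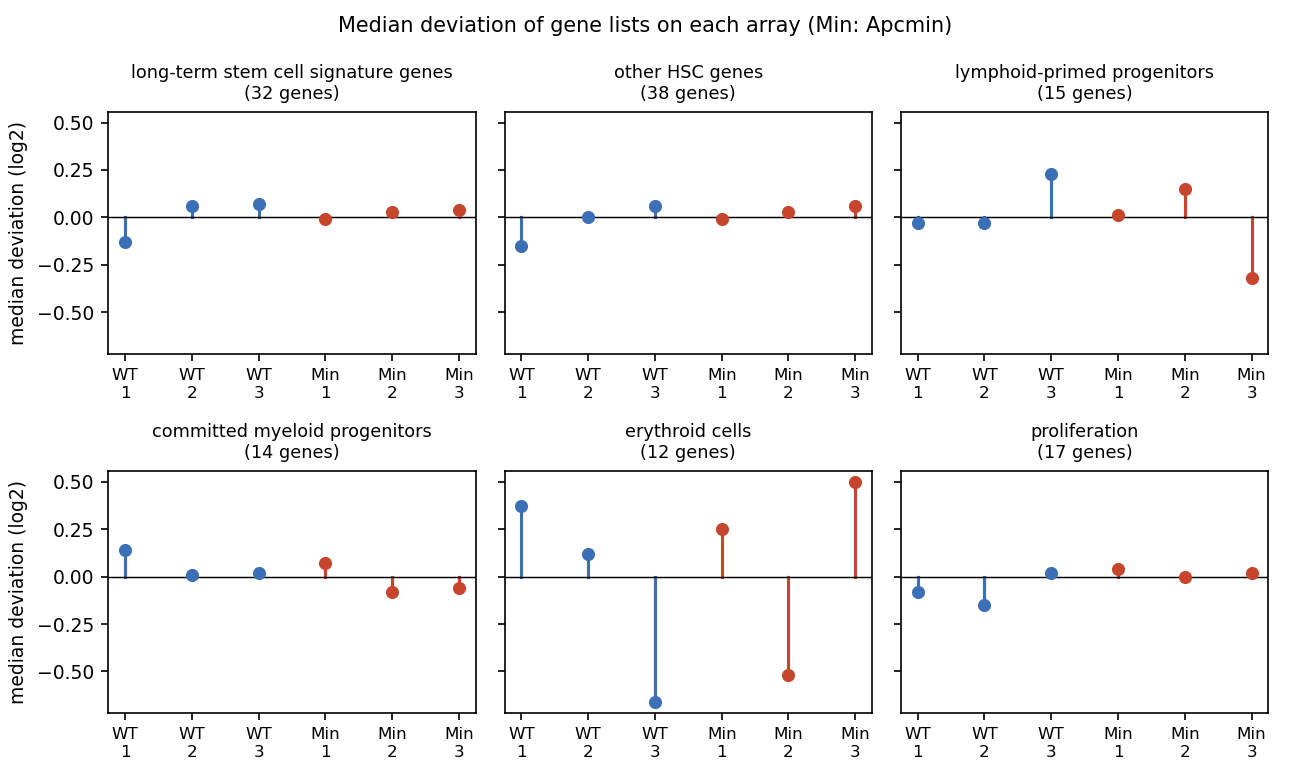
Median deviation of 6 gene lists on each array, in log2 intensity relative to each gene's mean over the 6 arrays (blue WT, red Apcmin, labelled Min). On WT replicate 1 the stem cell lists lie at -0.13 and -0.15 while the committed myeloid and erythroid lists lie at 0.14 and 0.37.

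Markers of other cells were mixed, with some at the bottom of the range and others bright. Of 15 endothelial genes, 9 were below 4 on every array, the defining receptors Cdh5 and Kdr among them, although Clec1a, Adgrl4, Myct1 and Tgm2 are also endothelial genes. The other endothelial genes included Eng (mean over the 6 arrays 8.55), Tie1 (7.42), Emcn (7.26) and Pecam1 (6.86), which blood progenitors can also express. The summed intensity of the 15 ran from 870 to 1005 in WT and from 840 to 967 in Apcmin. Of 14 mature lymphocyte genes, 10 were below 4 on every array, and 12 of the 14 had a lower mean in Apcmin. Of the 14, 13 were dim, and only 30.3% of all dim genes had a higher mean in Apcmin. The 10 include Cd3d, Cd3e and Cd3g, the CD3 subunits of the T-cell receptor complex, and the B-cell marker Ms4a1. Cd79b, of the B-cell receptor, was bright, with a mean of 7.99. The summed intensity of the 14 ran from 395 to 428 in WT and from 322 to 433 in Apcmin. Mature granulocyte and macrophage genes summed to between 8149 and 11986 in WT and between 9127 and 9826 in Apcmin, with Itgam, Adgre1, C1qa and Marco below 4 on every array. The granule and calcium-binding protein genes of the same list were bright, with S100a9 at 12.03 ± 0.35 in WT and 11.96 ± 0.10 in Apcmin, and means over the arrays of 11.36 for S100a8, 10.50 for Lyz2, 9.59 for Camp, 9.02 for Ngp and 7.23 for Ltf. The part of these cells in the members' values was not tested. Of 12 megakaryocyte and platelet genes, 9 had a lower mean in Apcmin, with sums from 1260 to 1779 and from 1083 to 1384. Over all genes 43% had a higher mean.

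The genes with the smallest unadjusted p in each of these lists had an adjusted p of 0.954 (limma). Slc4a1, the anion exchanger of red cells, was dim at 4.46 ± 0.36 in WT and 2.98 ± 0.36 in Apcmin, with separated groups. The globin gene Hba-a1, below 4 on every array, differed by -0.45. The erythroid list as a whole leaned the other way, with 8 of 12 genes higher in Apcmin and a median difference of 0.15. Its 7 genes with a mean of at least 6 in either genotype were all higher, against 56.3% of all such genes. Rab27b, a GTPase of platelet granules, differed by -0.88 with separated groups, and the collagen receptor Gp6 by -0.70. The myeloid genes Nkg7 and Fcgr3 differed by -0.34 and -0.41, and the macrophage receptors Cd14 and Marco by -1.02 and -0.48. The lymphoid genes Cd52, Ighm, Cd3d and Cd79a differed by -0.27, -0.28, -0.72 and -0.56. The endothelial genes Plvap and Pecam1 differed by 0.50 and -0.30, and Bub1 and Mcm5, of the mitotic checkpoint and of DNA replication, by 0.32 and 0.30. Besides Slc4a1 and Rab27b, groups separated for Hba-a1, Nkg7 and Cd14, lower in Apcmin, and for Bub1, higher. All were picked by a small p, and 7.73% of all genes separated.

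Promoter sequences from RefSeq (build GRCm38.p6) were at hand for 28 of the 32 genes, leaving out Tgm2, Zfp521, Clec1a and Tcf15. The 250 bases before each start were searched on both strands, because Apc acts on beta-catenin, which works through Tcf/Lef factors, and because GATA and Ets factors are prominent in stem cells. The Tcf/Lef words CTTTGAT or CTTTGAA were found in 1 of 38 member promoters (2.63%), that of Mecom, against 7.48% of all 32851 promoters. The GATA word AGATAA was found in 1, that of Myct1 (2.63% against 9.99%), and the Ets word GGAAGT in 4 (10.5% against 19.7%), those of Cd82, Gimap6, Myct1 and Sult1a1. A match is a run of letters and not a binding site. The sequences below are those of Mecom at its upstream start (chr3:30509760-30510009, minus strand), which holds the Tcf/Lef word; of Trim47 (chr11:116110236-116110485, minus strand), the only gene with separated groups whose promoter was at hand; and of Vldlr at its starts (chr19:27216234-27216483 and chr19:27216770-27217019, plus strand), shown because all of its probe sets lay on 1 side. Each runs 5′ to 3′ and ends just before the start, and capitals mark the matched word. Mecom and Vldlr were chosen for display after their values and matches were seen.
Mecom: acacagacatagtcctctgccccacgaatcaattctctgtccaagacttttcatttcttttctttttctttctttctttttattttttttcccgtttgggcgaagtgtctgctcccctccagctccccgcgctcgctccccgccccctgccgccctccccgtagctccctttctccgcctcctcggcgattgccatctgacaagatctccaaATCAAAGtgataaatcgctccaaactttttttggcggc
Trim47: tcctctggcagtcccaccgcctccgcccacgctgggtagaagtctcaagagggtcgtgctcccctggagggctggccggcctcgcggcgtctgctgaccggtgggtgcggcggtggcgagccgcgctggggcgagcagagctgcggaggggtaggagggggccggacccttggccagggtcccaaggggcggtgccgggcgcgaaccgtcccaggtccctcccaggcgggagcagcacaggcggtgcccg
Vldlr, first start: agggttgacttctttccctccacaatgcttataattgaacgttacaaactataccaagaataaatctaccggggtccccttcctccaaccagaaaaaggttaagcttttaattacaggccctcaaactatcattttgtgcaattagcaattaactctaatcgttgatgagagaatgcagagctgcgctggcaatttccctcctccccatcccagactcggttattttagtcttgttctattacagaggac
Vldlr, second start: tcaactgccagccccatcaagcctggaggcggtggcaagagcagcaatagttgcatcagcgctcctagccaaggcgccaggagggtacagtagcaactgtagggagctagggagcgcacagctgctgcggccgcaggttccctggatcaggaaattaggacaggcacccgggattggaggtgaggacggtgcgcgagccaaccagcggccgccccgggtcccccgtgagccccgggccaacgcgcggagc
The Mecom match lies on the reverse strand, 38 bases before the start. Trim47 has a GC content of 75.2% over these bases, and the Vldlr windows have 41.6% and 66.4%.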

How the data were processed

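RNA of LKS+ cells was amplified linearly and hybridized to Affymetrix whole-genome mouse arrays, per the labels' protocols. Each array has a table of linear normalized intensity values deposited by the authors, made by RMA per the submitters' processing notes. No version or background step is stated for it in the sources at hand. Values were taken to log2 with no pseudocount. Of 45101 probe sets, 64 controls were left out. The platform annotation gave 34945 probe sets exactly 1 symbol, 932 more than 1 and 9160 no symbol. Annotation was GEO's, and all 32 members kept their symbol through Entrez identifiers in RefSeq GRCm38.p6.

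Genotypes were compared with limma 3.58.1 in R 4.3.3 (lmFit, then eBayes, with genotype alone in the model), with p-values adjusted over all 45037 probe sets by Benjamini-Hochberg. The step was tested on simulated data. The members, marker lists and tests were chosen with earlier results of these data known. Every member is named. Values per array are given for members with groups that do not overlap, the 6 largest differences, the 4 brightest and the 3 with the largest spread. They are also given for Mecom and Vldlr, chosen after their values were seen. From each marker list the 2 genes with the smallest p are named, with Kit, Cd34, Slamf1, Procr, Flt3, Cd48, Mki67 and defining markers that lay below 4. Precision is set by how few arrays there are: the median half-width of a 95% interval was 0.48 over the members. Proteins were not compared because no protein sequences were used here.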

Additional observations from a re-analysis of the deposited data

How the results depend on the processing

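Over the 14 alternative settings, 0 members passed the adjusted threshold in limma, and 0 probe sets passed in the 13 settings fitted on probe sets. The smallest adjusted p of any member was 0.333, without WT replicate 3. In that setting 5864 probe sets had an unadjusted p under 0.05 in limma, against between 1267 and 1533 without any other array. When each array was left out, members higher in Apcmin numbered between 17 and 21, the median member difference lay between 0.00 and 0.08, and members with separated groups numbered between 4 and 9. With only probe sets of mean log2 intensity of at least 6, 23 members were left, of which 13 were higher in Apcmin and 1, Zfp521, separated. Fewer genes were tested there. Among 11 members whose difference was at least 1 standard error, 1 changed sign: Msi2, from -0.27 to 0.07 with the mean of all its probe sets, and the cause was not tested. Deviations of arrays with the same replicate number correlated at 0.05, -0.05 and -0.25 over 15155 probe sets. Those of arrays with unlike numbers correlated at between -0.16 and 0.21. With 3 arrays per genotype, these values cannot decide whether the numbers pair the samples, and the sample titles do not say. With the replicate number as a block, 0 members passed, 1398 probe sets had an unadjusted p under 0.05, and 20 members were higher. Array centring, array weights, a mean-variance trend and a floor at 4 gave between 20 and 21 members higher. Dim members are limited by signal over background, which has no detection call here.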
